A study of Homo sapiens with 6 samples.

Results

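The genes described here build and control the mitotic spindle. They are a fixed list of 44 human genes: cyclins and CDK1, the exit machinery around the anaphase-promoting complex, mitotic kinases, kinetochore proteins, kinesins, other spindle proteins, cytokinesis factors and 3 genes of chromosome structure and transcription. A gene was read when the platform annotation gave a probe its symbol and no other, and the probe with the highest mean was kept where there were several. That left 43 of the 44 listed genes among 18417 genes on the array. CENPA, the centromeric histone H3 variant, was read only by a probe that also carries another symbol, and no value is given for it.

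The cells were H441, an established human lung adenocarcinoma line. Both groups were transfected with siRNA in the same lipid reagent and collected 48 h later. The control group received a scrambled siRNA and the other group a pool of siRNA against ETS2, an ETS-domain transcription factor that ERK can phosphorylate once RAS is active. Each group holds 3 arrays, which the sample titles number without saying whether each is a separate transfection. The p-values measure the spread between these arrays of 1 line, and compare 1 siRNA reagent with 1 control reagent.

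A dividing cell switches on its mitotic genes late in the cell cycle. In G1 the MuvB complex holds them silent with the pocket proteins. In G2 the same complex, now joined by B-MYB and FOXM1, activates them, largely through a CHR element and nearby CCAAT boxes bound by NF-Y. Cyclin B with CDK1 then starts mitosis, the kinetochores and kinesins attach and align the chromosomes, and the spindle checkpoint holds back the anaphase-promoting complex until every chromosome is attached. Levels of these messages are widely read as a measure of how many cells in a culture are in G2 and mitosis. In bulk RNA, fewer cells in a phase and less RNA per cell cannot be told apart.

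Values are log2 levels from RMA, a method that corrects background, normalises arrays and summarises probes, and every difference is ETS2 siRNA minus control on that scale. A gene is said to have fallen or risen where limma's moderated test gave an adjusted p under 0.05 over all 18417 genes. ETS2 itself stood at 9.79, 9.91 and 9.79 in the control arrays and at 8.87, 8.70 and 8.78 after ETS2 siRNA, 48.4% of its control level (adjusted p = 0.000254, limma). All 10 markers of lung epithelium lay above a floor of 6.67, set from olfactory receptor genes, including the keratins, EPCAM, NKX2-1 and the surfactant gene SFTPB. SFTPB was called lower after ETS2 siRNA (-0.36, adjusted p = 0.0077, limma), and the other 9 were not called. The epithelial list averaged 12.04 to 12.05 in control arrays and 11.99 to 12.01 after ETS2 siRNA. Of the measured markers of other cells, 3 of 6 of leukocytes (CD14, CD68 and CSF1R), 4 of 6 of fibroblasts (COL1A1, COL1A2, COL3A1 and LUM) and 1 of 5 of endothelium (KDR) also lay above it. The brightest of these were CD68, with a control mean of 11.29, KDR at 9.80, LUM at 9.03 and COL1A1 at 8.95, and none of the markers of other cells was called. PTPRC, CD3E and LYZ of leukocytes, DCN and PDGFRB of fibroblasts, and PECAM1, VWF, CDH5 and TEK of endothelium lay below the floor. The leukocyte list averaged 6.72 to 6.78 in control arrays and 6.73 to 6.83 after ETS2 siRNA, the fibroblast list 7.10 to 7.21 and 7.14 to 7.18, and the endothelial list 6.84 to 6.90 and 6.77 to 6.85.

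Of the 43 mitotic genes, 4 fell and 0 rose. The 4 were KIF20A, HMMR, BUB1B and AURKA, and the other 39 were not called in either direction. The fall of 9.30% of the members stands beside 2.63% of all genes called lower, and beside 3.62% of the 12938 genes whose mean lay above the floor, as all 43 members did. Called higher were 2.28% of all genes and 3.19% of those above the floor, and called in either direction were 4.91% and 6.82%. At an unadjusted p under 0.05 there were 9 members, 8 lower and 1 higher, where the share was 18.5% of all genes and 23.4% of those above the floor. Over the members the median difference was -0.02, with 25 negative and 18 positive, against a median of 0.0033 over all genes. The members' median varied between arrays of a group with an SD of 0.0195, about as much as its distance from zero.

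**Figure D1:**
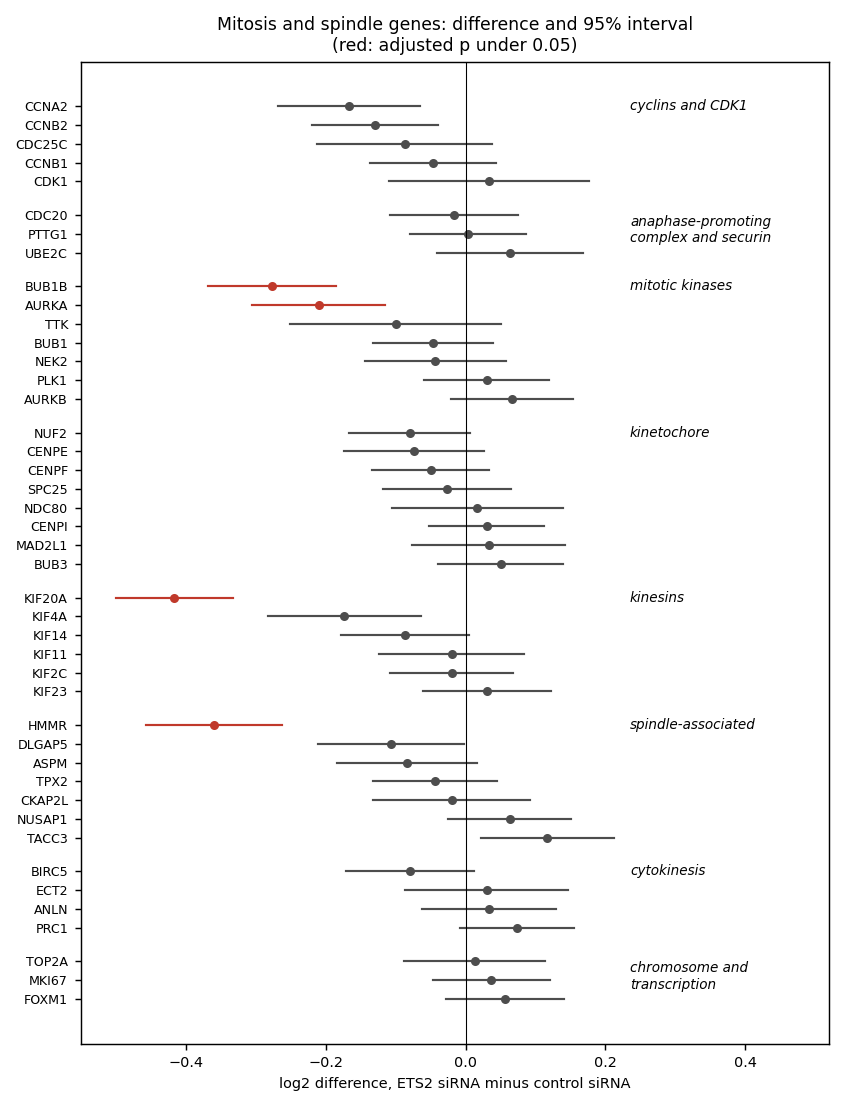
Log2 difference (ETS2 siRNA minus control siRNA, x axis) of each of the 43 measured mitotic genes, grouped by role, with limma's 95% interval as the bar. KIF20A (-0.42), HMMR (-0.36), BUB1B (-0.28) and AURKA (-0.21) are in red as called lower; the other 39 range from -0.17 to 0.12.

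The promoters of KIF20A, HMMR and BUB1B, which fell, are shown with those of 4 uncalled relatives, so that the CHR and CCAAT letters of genes that moved can be set beside those of genes that were not called. KIF23 is the relative of KIF20A in the kinesin-6 family, BUB1 and AURKB are the paralogues of BUB1B and AURKA, and CCNB1 encodes the main mitotic cyclin. Each line gives the 200 bases before the transcription start in RefSeq (GRCh38.p14), 5′ to 3′ on the strand of the gene, with CHR letters (TTTGAA or TTCGAA) and CCAAT letters on either strand in capitals.
KIF20A (called lower, chr5:138178912-138179111, plus strand): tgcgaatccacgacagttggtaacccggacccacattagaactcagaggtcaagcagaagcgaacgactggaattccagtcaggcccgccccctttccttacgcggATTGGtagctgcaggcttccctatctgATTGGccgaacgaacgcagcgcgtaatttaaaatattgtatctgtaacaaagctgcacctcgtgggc
HMMR (called lower, chr5:163460432-163460631, plus strand): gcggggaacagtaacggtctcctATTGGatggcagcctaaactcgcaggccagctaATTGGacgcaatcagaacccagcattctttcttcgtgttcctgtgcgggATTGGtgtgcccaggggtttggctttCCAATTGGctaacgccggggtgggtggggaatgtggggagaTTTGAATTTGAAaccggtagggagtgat
BUB1B (called lower, chr15:40160869-40161068, plus strand): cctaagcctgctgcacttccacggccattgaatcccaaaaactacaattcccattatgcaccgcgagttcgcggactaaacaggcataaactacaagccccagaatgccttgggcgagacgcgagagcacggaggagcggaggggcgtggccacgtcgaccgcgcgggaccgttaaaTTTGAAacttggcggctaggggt
KIF23 (not called, chr15:69414149-69414348, plus strand): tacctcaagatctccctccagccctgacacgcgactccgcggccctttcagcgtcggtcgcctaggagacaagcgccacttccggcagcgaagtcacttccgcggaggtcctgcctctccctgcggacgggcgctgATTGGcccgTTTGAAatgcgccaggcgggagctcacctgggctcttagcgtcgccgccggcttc
BUB1 (not called, chr2:110678064-110678263, minus strand): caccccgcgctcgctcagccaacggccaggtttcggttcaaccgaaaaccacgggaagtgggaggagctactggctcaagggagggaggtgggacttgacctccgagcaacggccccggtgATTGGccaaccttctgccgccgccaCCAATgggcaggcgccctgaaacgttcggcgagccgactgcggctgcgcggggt
AURKB (not called, chr17:8210226-8210425, minus strand): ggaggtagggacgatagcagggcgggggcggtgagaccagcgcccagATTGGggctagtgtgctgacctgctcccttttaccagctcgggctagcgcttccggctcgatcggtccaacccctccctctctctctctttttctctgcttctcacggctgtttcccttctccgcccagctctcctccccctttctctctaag
CCNB1 (not called, chr5:69166950-69167149, plus strand): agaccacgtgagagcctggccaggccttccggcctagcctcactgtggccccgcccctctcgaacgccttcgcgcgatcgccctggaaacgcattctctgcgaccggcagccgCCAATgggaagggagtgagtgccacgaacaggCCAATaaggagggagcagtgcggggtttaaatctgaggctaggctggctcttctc

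The RefSeq table had an entry for 37 of the 44 listed genes; where a gene had several starts, the one listed first was used. Over windows of 300 bases, 250 before the start and 50 after, CHR letters occurred in 26 of these 37 promoters (70.3%) against 16.6% of the promoters of 27305 genes. CCAAT occurred in 28 of 37 (75.7%, against 35.7%), and both together in 22 of 37 (59.5%, against 6.58%). Both counts read either strand, and CHR and CCAAT letters overlap nowhere in the windows printed. Of the 3 called genes with an entry, HMMR held both kinds, with CCAAT letters 5 times, of which a neighbouring pair overlap, and TTTGAA in tandem, KIF20A held CCAAT letters 2 times and no CHR letters, and BUB1B held 1 CHR and no CCAAT. Of the 33 measured and uncalled genes with an entry, 23 held CHR letters (69.7%) and 25 held CCAAT letters (75.8%). Among promoters of other mitotic genes, 39% held CHR letters, 51.7% CCAAT letters and 22.9% both. For replication genes the shares were 7.69%, 53.8% and 5.13%.

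The letters CCGGAAGT, a strong match to the site that ETS factors bind, were found in 3 of the 37 promoters (8.11%), on either strand, and in 0 of the 3 called genes. The share was 4.44% of all promoters, 6.38% of those of genes tested here, 6.78% of those of other mitotic genes and 7.69% of those of replication genes. The carriers were KIF23, whose copy begins 123 bases before the start, KIF14 at 77 bases and DLGAP5 at 46 bases. Their log2 differences were 0.03, -0.09 and -0.11, and none was called. The core GGAA alone was present in all 37 promoters and in 95.5% of all promoters. These matches describe letters in a window and locate no bound site.

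Among the kinesins, motors that move along or reshape microtubules, KIF20A fell furthest of the 43 genes. KIF20A works at the central spindle in anaphase and cytokinesis. Its arrays read 11.67, 11.71 and 11.71 in control cells and 11.27, 11.28 and 11.29 after ETS2 siRNA. All 3 treated arrays lay below every control array, and the gap between the groups was far wider than the spread within either. The difference was -0.42 (SE 0.0364, 95% interval -0.50 to -0.33, adjusted p = 0.00131, limma), 74.9% of the control level and the fall ranked 65 among all 18417 genes. KIF20A was called under all 16 alternative ways of processing.

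KIF23, which carries the centralspindlin complex and belongs to the same kinesin family, was not called. It read 11.55, 11.62 and 11.63 in control arrays and 11.61, 11.64 and 11.64 after ETS2 siRNA, with groups that overlap and a difference of 0.03 (95% interval -0.06 to 0.12). Set against each other on each array, KIF20A minus KIF23 was 0.12, 0.09 and 0.08 in control arrays and -0.34, -0.36 and -0.35 after ETS2 siRNA. The group means of this quantity lay -0.45 apart, and the groups did not overlap. Each of the 3 pairs of relatives set side by side here joins a called gene to an uncalled one and was chosen with results known. The gaps are therefore given as descriptions, and no p-value is read from them.

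KIF4A, the chromokinesin that organises the anaphase midzone, read 11.11, 11.20 and 11.06 in control arrays and 10.98, 10.91 and 10.96 after ETS2 siRNA. Its groups did not overlap, and its difference of -0.17 (95% interval -0.28 to -0.06) missed the threshold (adjusted p = 0.0867, limma). A further probe that carries both KIF4A and its near copy KIF4B was not used, and whether the kept probe also reads KIF4B was not tested. KIF14, a kinesin of cytokinesis, stood at -0.09, and KIF11, the motor that pushes spindle poles apart, and KIF2C, which depolymerises microtubules at kinetochores, each at -0.02. Of the 6 kinesins, 1 fell and 5 were not called.

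HMMR, a spindle-pole protein that also serves as a hyaluronan receptor, read 10.02, 10.02 and 9.97 in control arrays and 9.63, 9.70 and 9.60 after ETS2 siRNA. Every treated array lay below every control array. HMMR fell by 0.36 (SE 0.0423, 95% interval -0.46 to -0.26, adjusted p = 0.00425, limma), to 77.9% of its control level, and was called under all 16 alternatives. TACC3, which stabilises spindle fibres together with clathrin, was the member with the largest positive difference: 9.84, 9.93 and 9.91 in control arrays against 10.03, 10.02 and 9.98. Its groups did not overlap, and the difference of 0.12 (95% interval 0.02 to 0.21) was not called (adjusted p = 0.168, limma).

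TPX2, which activates AURKA on the spindle, stood at -0.04 with an interval from -0.13 to 0.05. DLGAP5, a stabiliser of kinetochore fibres, stood at -0.11 (adjusted p = 0.257, limma), ASPM, a spindle-pole protein, at -0.08, CKAP2L, a spindle protein, at -0.02 and NUSAP1, a microtubule bundler, at 0.06. Of these 7 spindle proteins, 1 fell and 6 were not called, and their differences ran from -0.36 to 0.12.

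The kinases held the remaining called members. BUB1B encodes BubR1, a subunit of the mitotic checkpoint complex that restrains the anaphase-promoting complex. It read 10.83, 10.83 and 10.81 in control arrays and 10.55, 10.50 and 10.59 after ETS2 siRNA, with no overlap. BUB1B fell by 0.28 (SE 0.0397, 95% interval -0.37 to -0.19, adjusted p = 0.00925, limma), to 82.5% of its control level. Its paralogue BUB1, a kinase at the kinetochore, read 11.59, 11.62 and 11.64 against 11.57, 11.55 and 11.59, a difference of -0.05 with groups that meet at 11.59. Within arrays BUB1B minus BUB1 was -0.76, -0.79 and -0.83 in control cells and -1.02, -1.05 and -1.0 after ETS2 siRNA, a gap of -0.23 between the group means.

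AURKA, the kinase that matures centrosomes and builds the bipolar spindle, read 11.21, 11.16 and 11.24 in control arrays and 10.95, 11.02 and 11.01 after ETS2 siRNA. The groups did not overlap. AURKA fell by 0.21 (SE 0.0415, 95% interval -0.31 to -0.11, adjusted p = 0.0288, limma), to 86.5% of its control level. This call is the least stable of the 4: it was lost without control replicate 1, control replicate 3 or any 1 of the 3 ETS2 siRNA replicates (adjusted p from 0.0338 to 0.107 over the 6 arrays left out in turn), and also with the replicate number as a block (adjusted p = 0.0649) and when every probe was tested (adjusted p = 0.082; limma throughout). AURKB, the kinase of the chromosomal passenger complex, read 11.71, 11.77 and 11.72 against 11.81, 11.81 and 11.78. Its difference of 0.07 was not called, although its groups did not overlap either, in the opposite direction. AURKA minus AURKB was -0.50, -0.61 and -0.48 in control arrays and -0.86, -0.79 and -0.77 after ETS2 siRNA, a gap of -0.28 between the group means.

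The other kinases were not called. PLK1, which acts from mitotic entry to cytokinesis, stood at 0.03 (95% interval -0.06 to 0.12), NEK2, which separates centrosomes, at -0.04, and TTK, the kinase that starts the spindle checkpoint, at -0.10. TTK read 9.78, 9.75 and 9.68 in control arrays and 9.49, 9.71 and 9.71 after ETS2 siRNA, so that its negative difference rests largely on ETS2 siRNA replicate 1 and was -0.03 without it. It also had the largest standard error of the 43 (0.0656).

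**Figure D2:**
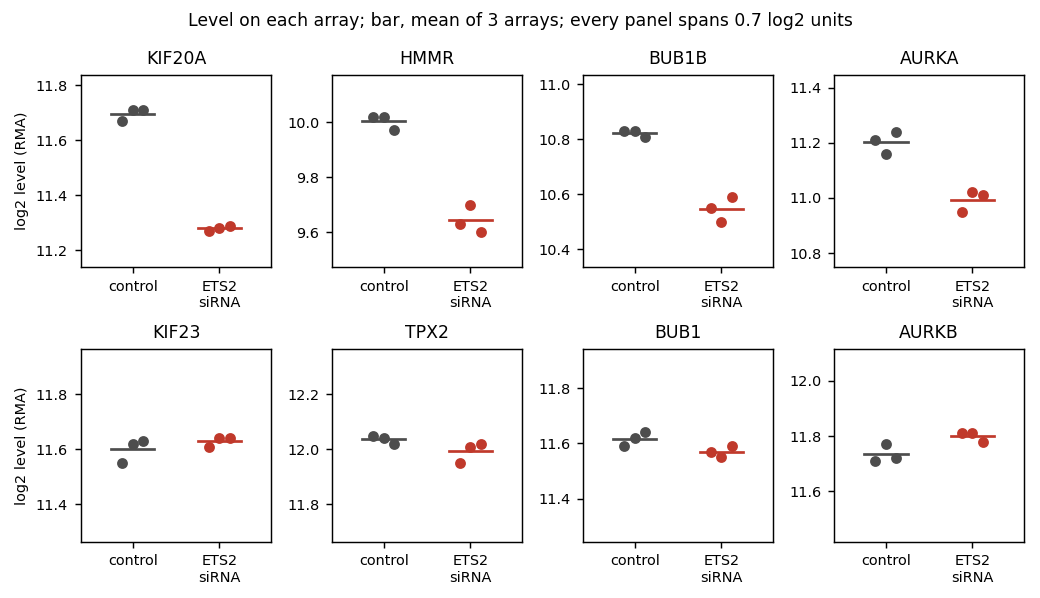
Log2 level (y axis) on each of the 3 control arrays (grey) and 3 ETS2 siRNA arrays (red) for the 4 called genes (top row) and 4 uncalled spindle and kinase genes (bottom row); the bar is the group mean and every panel spans the same log2 range. The groups are apart in the top row, most of all for KIF20A, whose treated arrays sit at 11.27 to 11.29 against 11.67 to 11.71.

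The cyclins that drive mitosis were not called. Cyclin A2 (CCNA2), which acts from S phase to early mitosis, read 11.46, 11.42 and 11.43 in control arrays and 11.20, 11.32 and 11.29 after ETS2 siRNA. Its groups did not overlap, and its difference was -0.17 (95% interval -0.27 to -0.07, adjusted p = 0.0779, limma). Cyclin B2 (CCNB2) read 11.35, 11.36 and 11.33 against 11.17, 11.24 and 11.24, a difference of -0.13 (adjusted p = 0.112, limma), again without overlap.

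CCNB1, the principal partner of CDK1, read 11.06, 11.11 and 11.10 against 11.01, 11.04 and 11.08, and its difference of -0.05 had an interval from -0.14 to 0.04. CDK1 stood at 0.03 (95% interval -0.11 to 0.18), with 10.11 on ETS2 siRNA replicate 1 and 10.29 and 10.35 on the others. CDC25C, the phosphatase that removes the inhibitory marks from CDK1, stood at -0.09. In the exit machinery, CDC20, the activator of the anaphase-promoting complex, read 12.21, 12.23 and 12.27 against 12.18, 12.24 and 12.24. Its partner enzyme UBE2C read 10.15, 10.28 and 10.20 against 10.29, 10.29 and 10.24, and securin, PTTG1, stood at 0.00 (95% interval -0.08 to 0.09). None of these 8 genes was called.

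Of the 8 measured kinetochore genes, 0 were called by limma and 0 had an unadjusted p under 0.05, with differences from -0.08 to 0.05. NUF2 of the NDC80 complex read 10.12, 10.12 and 10.16 in control arrays and 10.05, 10.08 and 10.03 after ETS2 siRNA, apart but by little (-0.08, adjusted p = 0.311, limma). The motor CENPE read 10.34, 10.31 and 10.39 against 10.22, 10.28 and 10.32, with overlap. NDC80 itself stood at 0.02, SPC25, of the same complex, at -0.03, CENPF, which peaks in G2 and mitosis, at -0.05, and CENPI, of the inner kinetochore, at 0.03. The checkpoint proteins BUB3 and MAD2L1, which act with BubR1 in the checkpoint complex, stood at 0.05 and 0.03.

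The cytokinesis genes were not called either. PRC1, the bundler of the central spindle to which KIF4A binds, read 11.27, 11.25 and 11.26 against 11.34, 11.33 and 11.33, so its groups were apart by a small and even step of 0.07 (adjusted p = 0.325, limma). BIRC5, or survivin, read 9.84, 9.81 and 9.81 against 9.77, 9.69 and 9.76, a difference of -0.08. Its second and dimmer probe also read -0.08. The ring scaffold ANLN and the RHOA activator ECT2 each stood at 0.03.

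The general markers of dividing cells and their activator were likewise not called. MKI67, the gene of the Ki-67 antigen, read 11.36, 11.41 and 11.38 in control arrays and 11.42 on every ETS2 siRNA array. TOP2A, the topoisomerase that untangles sister chromatids, read 12.28, 12.22 and 12.28 against 12.22, 12.27 and 12.33. FOXM1, the transcription factor of the mitotic genes, read 11.92, 11.97 and 11.95 against 11.99, 12.01 and 12.01, and its difference of 0.06 had an interval from -0.03 to 0.14. FOXM1 and MKI67 were thus no lower on any treated array than on any control array.

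A missed threshold does not show that a gene stayed level, so the intervals matter. Among the 39 uncalled genes, the 95% interval lay within 0.2 of zero on both sides for 32. It reached below -0.2 for 6, down to -0.28 for KIF4A, and above 0.2 for 1, TACC3, at 0.21. Standard errors over the 43 genes ran from 0.0352 to 0.0656. The median spread within groups was an SD of 0.0332, against 0.0552 over genes above the floor.

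The groups did not overlap for 20 of the 43 members (46.5%), 13 lower and 7 higher after ETS2 siRNA, against 23.1% of all genes and 29.3% of those above the floor. Over all genes the groups were apart for 11.5% lower and 11.6% higher, and above the floor for 14.5% and 14.7%. The smaller spread within groups stands beside that share, and its part in it was not tested. Among genes of the same machinery outside the list, 42.1% did not overlap.

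ETS2 siRNA replicate 1 read lower than the other 2 treated arrays for many of these genes. It held the lowest value of its group for 28 of the 43 members (65.1%), against 34.1% of all genes above the floor, and its median deviation from the group mean was -0.03. Replicates 2 and 3 were lowest for 5 and 6 members. The control arrays were lowest in their group for 16, 8 and 15 members. On the other lists ETS2 siRNA replicate 1 and control replicate 1 were alike in this: the former was lowest for 51.1% of other mitotic genes and 50% of replication genes, and the latter for 48.9% and 54.5%, against 39.5% of all genes above the floor. Without ETS2 siRNA replicate 1 the median over members was -0.005, and the members with positive differences numbered 21 and those with negative ones 22. The groups then did not overlap for 13 lower and 14 higher. Fewer arrays separate more readily by chance, and no share over all genes is given for this setting. These counts can therefore not be compared with those from all arrays. KIF20A, HMMR and BUB1B were called without ETS2 siRNA replicate 1, and AURKA was not.

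**Figure D3:**
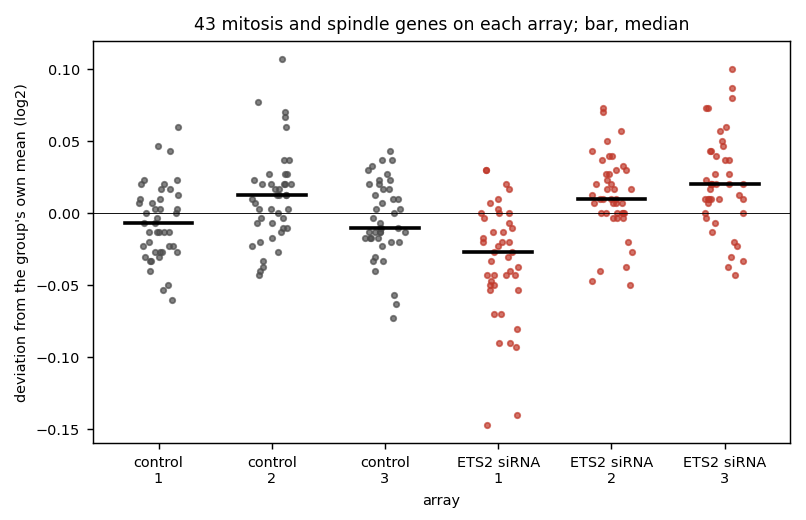
Deviation of each of the 43 mitotic genes from the mean of its own group (y axis, log2) on each array (x axis), with the median as a bar. The medians of the control arrays lie between -0.01 and 0.01, and ETS2 siRNA replicate 1 has the lowest, -0.03.

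The rest of the mitotic machinery was described from a list of 137 further genes chosen by role, of which 133 were measured. Of these, 3 rose and 6 fell (6.77% called), a share near the 6.82% of all genes above the floor, where all 133 lie, and the median difference was 0.01. Over all genes, dim ones included, 4.91% were called. NEK7, a kinase of spindle assembly that is also needed by the NLRP3 inflammasome, fell by 0.47, further than any of the 43 (SE 0.0428, adjusted p = 0.00165, limma). Its arrays read 10.68, 10.73 and 10.72 in control cells and 10.24, 10.19 and 10.30 after ETS2 siRNA. ZWINT, which joins the checkpoint to the kinetochore, fell by 0.29 and PBK, a mitotic kinase, by 0.25. HAUS2, of the augmin complex that branches spindle microtubules, fell by 0.25, and OIP5, which helps load CENPA, and NIPBL, the cohesin loader, by 0.19 each.

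Higher after ETS2 siRNA were MAPRE1 (0.26), which encodes the microtubule-tip protein EB1, CDC23 (0.25), a subunit of the anaphase-promoting complex, and MYBL2 (0.19), which encodes B-MYB. MYBL2 read 11.49, 11.53 and 11.46 in control arrays and 11.65, 11.71 and 11.70 after ETS2 siRNA, without overlap (adjusted p = 0.0332, limma). The count for this list varied more than that of the 43: with 1 array left out it ranged from 1, without ETS2 siRNA replicate 2 or 3, to 5, without control replicate 2.

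Replication genes, which are switched on earlier in the cycle, had a different median. Of 44 measured, 5 rose and 1 fell (11.4% and 2.27%), against 3.19% and 3.62% of all genes above the floor, where 43 of the 44 lie. Their median difference was 0.095 with 39 positive. CDC6, which loads the replicative helicase, rose by 0.31, CLSPN, a checkpoint mediator, by 0.26, UHRF1, which helps copy DNA methylation, by 0.21, RFC1, the large subunit of the clamp loader, by 0.21 and CCNE2, a cyclin of S phase entry, by 0.19. RRM1, of ribonucleotide reductase, fell by 0.21. In that order their adjusted p was 0.04, 0.0431, 0.0412, 0.0197, 0.0304 and 0.0275 (limma). These calls were not followed over the alternative ways of processing. The difference between the lists was not tested, since their genes are not replicates.

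**Figure D4:**
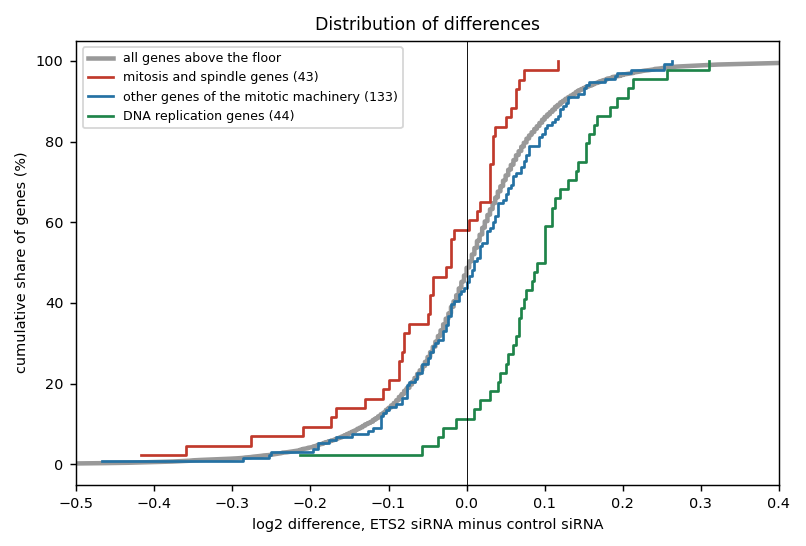
Cumulative share of genes (y axis, percent) against the log2 difference (x axis) for the 43 mitotic genes, 133 other genes of the mitotic machinery, 44 replication genes and all genes above the floor. The medians are -0.02, 0.01, 0.095 and 0.0033, and the replication curve lies to the right.

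KIF20A, HMMR and BUB1B were called under each of the 16 alternative ways of processing that were run, and AURKA under 9. The highest adjusted p reached was 0.0132 for KIF20A, 0.0325 for HMMR and just under the threshold for BUB1B (limma throughout). CCNA2 and KIF4A were called only under 2 of the 16, when genes below the floor were left out before adjustment or when the variance followed intensity, and CCNB2 only under the latter. No member was called higher under any of the 16.

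**Figure D5:**
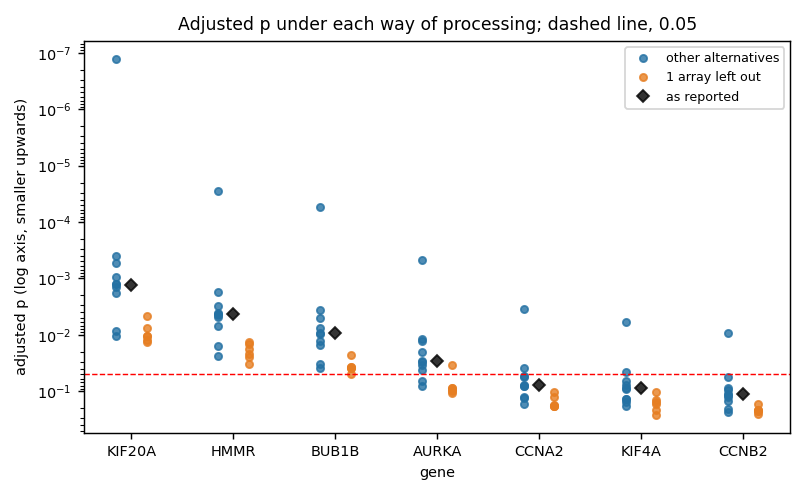
Adjusted p (y axis, log scale with smaller values upwards) of the 4 called genes and of CCNA2, KIF4A and CCNB2 (x axis), as reported (diamonds), with 1 array left out (orange) and under the other alternatives (blue); the dashed line marks 0.05. KIF20A and HMMR stay above the line throughout, and AURKA falls below it under 7 of 16 alternatives.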

How the data were processed

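Each column of the deposited table holds 1 array's log2 levels, which the authors made with RMA per the submitters' processing notes. Neither the RMA version and settings nor a genome build is given in the sources used here. The table held 33297 probes between 3.21 and 14.51, with array medians of 7.32 to 7.36. The platform annotation gave 19460 probes exactly 1 symbol, which left 18417 genes. Dim genes were kept. RMA removes any shift common to the whole array, and having 3 arrays a group limits the precision.

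Differences were fitted with limma 3.58.1 (lmFit, eBayes) in R 4.3.3 over all 6 arrays, two-sided, with Benjamini-Hochberg adjustment. The floor is the 95th percentile of 341 olfactory receptor genes. The fit was tested on simulated data with each gene's own spread within groups. Of 67 genes changed by 0.25 on the log2 scale, 27 were called (40.3%), against 80.6% of those changed by 0.5 and 98.5% by 1.0. Another 7 genes were called without having been changed. The changed genes were drawn from all 18417, dim ones included. The median SD within groups was 0.062 over all genes and 0.0332 over the members, so these shares are not those of the members. Members and lists, 44 mitotic genes, 137 others, 45 replication genes and cell and p53 markers, were chosen with earlier results of these data known, so lists have counts and no test. Named are ETS2, all members by role with array values for called genes, chosen relatives and the 2 smallest p of each role, and up to 6 called genes of each other list; the other mitotic list is given in full, since its calls numbered 9. The 16 alternatives were a replicate block, 3 rescalings, a filter on dim genes, 2 treatments of probes, 2 variance models, array weights and each array left out. Replicate numbers were not treated as pairs in the main fit.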

Additional observations from a re-analysis of the deposited data

How the results depend on the processing

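Of 16 alternatives, the number of mitotic genes called lower stayed between 3 and 6 except with an intensity trend, where it was 7; with 1 array left out it lay between 3 and 4. No member was called higher. The median over members lay between -0.035 and -0.005 with 1 array left out and was -0.0067 when arrays were median-centred. Over 688 comparisons of single members with their reported value, 7 calls were lost, all of AURKA, 5 were gained and 0 called differences changed sign. Signs changed in 14 of 619 comparisons uncalled under both. The count over all genes was 1408 with genes above the floor only, 322 when every probe was tested, 1963 with an intensity trend and 1480 with array weights, against 904, and lay between 213 and 735 with 1 array left out. The count of 9 among the other mitotic genes became 5 when median-centred, 20 with genes above the floor only, 1 when every probe was tested, 30 with an intensity trend and 21 with array weights, and lay between 1 and 5 with 1 array left out. Fewer genes entered the adjustment under the filter on dim genes and more probes under the test of every probe, and both were fitted anew. The cause of the changed counts was not tested for any alternative.

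With the replicate number as a block, 604 genes were called in all, 3 of the members (KIF20A, HMMR and BUB1B) and 5 of the other mitotic genes. The deviations of same-numbered arrays correlated at 0.177, 0.181 and 0.035, and those of differently numbered arrays between -0.198 and 0.066. Control replicate 3 correlated better with ETS2 siRNA replicate 1 (0.066) than with its own number. The sample titles do not say what a number marks, so the numbers were not treated as pairs, and whether they are pairs was not settled. The number of arrays and a spread within groups of 0.0332 (median SD) limit what can be seen; the smallest called difference among the members was that of AURKA, -0.21.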

Other observations

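Of 5 measured markers of p53-driven arrest (CDKN1A, MDM2, GDF15, SESN1 and FAS), 0 were called by limma, with 2 at an unadjusted p under 0.05. CDKN1A, which encodes the CDK inhibitor p21, had the largest difference of these, 0.19 (95% interval 0.07 to 0.31). SESN1, the other at an unadjusted p under 0.05, had a difference of -0.11 (95% interval -0.20 to -0.01). The groups did not overlap for 3 of the 5, with SESN1 lower and CDKN1A and MDM2 higher after ETS2 siRNA. Of all genes above the floor, where all 5 lie, 23.4% had an unadjusted p under 0.05 and 29.3% did not overlap. The median difference over the 5 was 0.0067.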
